A study of Mus musculus with 32 samples.

Results

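The RNA level of 4 inner root sheath genes differed widely among the 8 sham back skin arrays of a mouse dermatitis series. The genes that went with this level are described here. Each array was scored by the mean log2 value of Krt25, Krt27, Krt71 and Tchh, 3 keratins and a matrix protein (trichohyalin) of the inner root sheath, the sleeve around a growing hair. Of 12275 genes looked at, 195 had a Spearman correlation (rho) with that score of 0.9 or more and 297 one of -0.9 or less. The 492 genes were thus chosen by these correlations, which are a description and carry no test. The 4 score genes were left out.

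The series holds 32 arrays, of which these are 8. All came from mice of the inbred, dermatitis-prone NC/Nga strain, and the 4 groups of 8 arrays were sham back skin, HDM back skin, sham ear and HDM ear. HDM is the agent named in the series title as inducing the dermatitis. The labels do not spell it out, do not say what the sham mice received, and give neither age nor sex nor day of the hair cycle. RNA was taken from whole 8 mm punches of dorsal skin or ear, so that fewer cells of a type and less RNA per cell cannot be told apart. Mouse numbers recur in all groups without a statement that they mark the same animal.

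A hair follicle passes through growth, regression and rest. In growth, matrix cells at its base divide and mature into the inner root sheath and the shaft, which is built of hair keratins and keratin-associated proteins (Krtap genes). Wnt and Bmp signals and the transcription factors Lef1, Msx2, Dlx3, Foxn1 and Hoxc13 act on the matrix, and pigment cells of the bulb supply melanin while growth lasts. In resting skin the shaft remains but its genes are largely silent.

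As examples picked by hand, the 250 bases before the start of 4 positive genes are given, from the RefSeq annotation of GRCm38.p6 (the reference mouse strain, not NC/Nga). These 4 are not typical of the positive genes, whose windows mostly lacked the TATAAA marked below. Krtap1-4 (chr11:99583678-99583927) and Krtap4-2 (chr11:99635085-99635334) encode shaft matrix proteins. Krt40 (chr11:99543221-99543470) is a hair keratin, and Calhm4 (chr10:34044314-34044563) belongs to a family of membrane channels. All are on the minus strand and are written 5′ to 3′ in the direction of transcription. Capitals mark TATAAA, a form of the TATA box, and CTTTGA, the core letters of Lef1/Tcf sites, each searched on both strands, where TTTATA and TCAAAG are the reverse complements.
Krtap1-4: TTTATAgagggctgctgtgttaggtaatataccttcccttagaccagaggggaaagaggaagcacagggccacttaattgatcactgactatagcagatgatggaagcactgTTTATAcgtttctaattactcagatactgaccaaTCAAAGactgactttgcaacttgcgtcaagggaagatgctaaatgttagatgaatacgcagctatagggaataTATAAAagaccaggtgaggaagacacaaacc
Krtap4-2: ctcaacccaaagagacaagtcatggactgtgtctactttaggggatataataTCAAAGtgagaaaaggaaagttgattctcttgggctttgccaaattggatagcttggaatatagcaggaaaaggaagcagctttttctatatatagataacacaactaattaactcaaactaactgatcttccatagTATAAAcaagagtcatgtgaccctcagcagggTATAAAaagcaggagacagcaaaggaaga
Krt40: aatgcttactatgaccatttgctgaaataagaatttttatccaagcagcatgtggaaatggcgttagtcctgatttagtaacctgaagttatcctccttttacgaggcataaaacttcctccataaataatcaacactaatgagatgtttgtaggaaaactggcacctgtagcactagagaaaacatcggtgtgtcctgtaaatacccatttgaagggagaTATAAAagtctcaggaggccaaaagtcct
Calhm4: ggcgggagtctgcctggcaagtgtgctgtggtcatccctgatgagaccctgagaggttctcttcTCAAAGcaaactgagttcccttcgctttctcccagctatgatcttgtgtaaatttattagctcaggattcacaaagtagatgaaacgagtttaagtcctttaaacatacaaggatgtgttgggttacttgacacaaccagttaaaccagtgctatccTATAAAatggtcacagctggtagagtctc

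The TATAAA nearest the start lay 31 bases before it in Krtap1-4 and 29 bases before it in Krtap4-2, Krt40 and Calhm4. These letters were found in 12.4% of all 32851 RefSeq windows of this length and in 70.6% of the 68 windows of hair structural genes (inner root sheath, hair keratin and Krtap lists). The share was 15.2% for the 198 windows of the positive genes and 10.8% for the 186 of them outside the hair structural lists. CTTTGA was found in 13.8% of all windows, in 29.4% of hair structural ones, in 13.6% of the positive and in 15.6% of the negative genes. A match describes letters and does not show a working site.

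The score ran from 10.93 in mouse 1 through 15.23 in mouse 2, 16.08 in mouse 5 and 17.15 in mouse 7 to between 17.99 and 18.11 in mice 6, 3, 4 and 8. Mouse 1 lay far below the others and the upper 4 arrays were nearly tied. Tchh, the brightest of the score genes, ran from 14.46 to 19.93, the highest value in the whole table, so that differences at the top may be compressed. That range is wide for RMA values, and if they were rescaled afterwards, which the files do not settle, slopes and differences would not be true log2 units. Krt27 ran from 9.94 to 18.05, Krt71 from 10.21 to 17.76 and Krt25 from 9.12 to 16.69, and each was lowest in mouse 1. Even there all 4 genes were above the array background, taken as the median of the negative control rows (4.51 to 5.06 in this group). Mouse 1 also had the lowest correlation of the 8 with the average of its group's remaining arrays, 0.975 against 0.986 to 0.991. Because mice 1 and 2 stood apart, results that rest on them are given with and without them.

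The mean score was 16.44 ± 2.47 (SD, n = 8) in sham and 17.35 ± 0.38 (SD, n = 8) in HDM back skin, where it lay between 16.76 and 17.84. The whole HDM range fell inside the sham range, and the difference of 0.91 was not larger than the spread (exact two-sided permutation test, adjusted p = 0.391 over 3 comparisons). In ear the score was 6.73 ± 1.44 (SD, n = 8) in sham and 5.36 ± 0.94 (SD, n = 8) in HDM samples, a difference of -1.37 that missed the threshold after adjustment (exact permutation, adjusted p = 0.0618). Sham ear was 9.71 lower than sham back skin with no overlap (difference -9.71, exact permutation, adjusted p = 0.000466, from the smallest p that 8 against 8 arrays allow, 0.000155). Tchh was above background on 8 of 8 arrays in both ear groups, Krt27 on 4 in each, Krt25 on 6 in sham and 2 in HDM ear, and Krt71 on 5 and 3. Replicates are numbered as mice within each group, and p-values here measure only the spread between these samples.

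**Figure D1:**
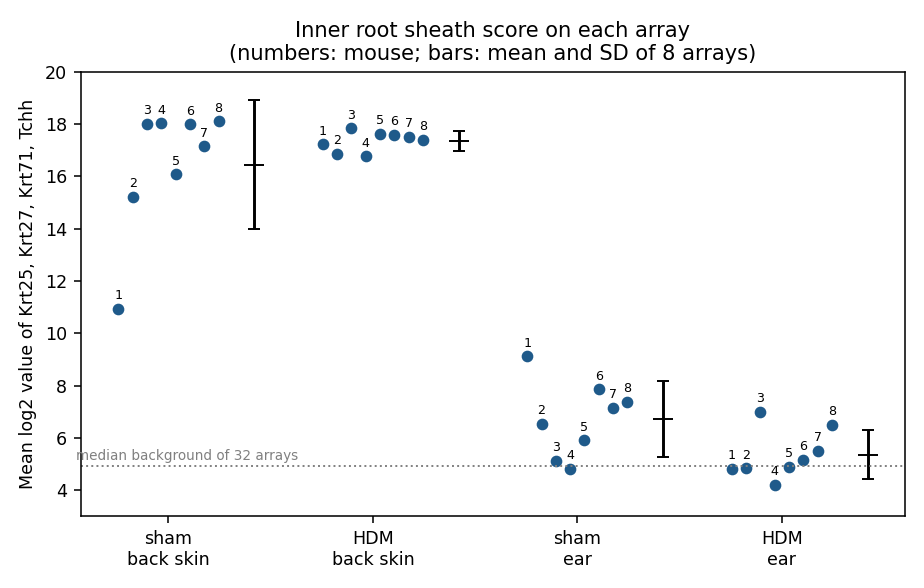
The score (mean log2 value of Krt25, Krt27, Krt71 and Tchh, vertical axis) on each of the 32 arrays, numbered by mouse, with the mean and SD of each group of 8 as bars and the median array background as a dotted line. Sham back skin spans 10.93 to 18.11, HDM back skin 16.76 to 17.84, and both ear groups lie between 4.21 and 9.11.

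By size of slope, genes positive with the score were led by the hardened parts of the follicle, although most positive genes were on no gene list. Of the 195 positive genes (1.59% of those looked at), 13 were on the 3 hair structural lists and 174 on none of the gene lists. The 13 held 11 of the 22 positive genes with a slope of 1 or more log2 units per unit of score. For comparison, 69 of the 12275 genes looked at were hair structural. An absolute slope of 1 or more was found for 88 of the 12275. Among the negative genes (297, or 2.42%) no hair structural gene and no slope of that size was found. The median slope was 0.29 log2 per unit of score for positive and -0.20 for negative genes, against -0.02 for all genes looked at. The shares of positive and negative genes are set by the rule. The rho values are stepped with 8 arrays: 189 genes lay just inside at 0.905 and 20 just outside at 0.898, and median slopes there were 0.25 and 0.23 for positive genes.

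Krtap1-4 had log2 values of 8.28 in mouse 1, 14.72 in mouse 2, 12.89 in mouse 5, 16.66 in mouse 7 and 17.98 to 18.49 in the upper 4 mice. It was thus close to its top in 4 mice and lowest in mouse 1, with mouse 5 below mouse 2 although its score was higher. Krtap4-9 had a lowest value of 4.74, near background, and a highest of 15.07, and Krtap4-1 went from 7.56 to 16.87. Krtap4-16, Krtap1-3, Krtap4-2 and Krtap6-1 had slopes of 1.25, 1.23, 1.18 and 1.07. Near-identical Krtap genes may share probes, so values of single members are uncertain. Over the Krtap list 47 of 50 measured genes passed the background filter and all 47 had a positive rho, with a median of 0.83.

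In the inner root sheath list, Tchhl1, a relative of trichohyalin, had 10.10 in mouse 1, 14.68 in mouse 2, 13.28 in mouse 5, 17.84 in mouse 7 and 17.98 to 18.60 above. Padi3, the enzyme that turns arginines of trichohyalin into citrulline, had 5.40, 9.60, 10.32, 11.91 and 14.10 to 14.91 in the same order. Both were high in the 4 mice of high score and far lower in mouse 1. The 10 genes of that list had a median rho of 0.82 and the 12 hair keratins one of 0.83. Among the keratins Krt40 ranged from 3.68 in mouse 1, below background, to 9.05 in mouse 8.

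Calhm4 had the largest slope of a named gene outside the lists, 1.42 ± 0.10 (SE, n = 8) log2 per unit of score. Its value was 4.74 in mouse 1, 10.14 in mice 2 and 5, 12.23 in mouse 7 and 14.34 to 14.95 in the upper 4. Tgm6, a transglutaminase, which links proteins to each other, went from 3.39 in mouse 1, below background, to 11.10 in mouse 8. Prr9, a proline-rich protein, went from 5.81 to 13.49. Calhm4 and Tgm6 were not lower at any step of the score up to mouse 7, and Prr9 was lower in mouse 5 than in mouse 2.

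**Figure D2:**
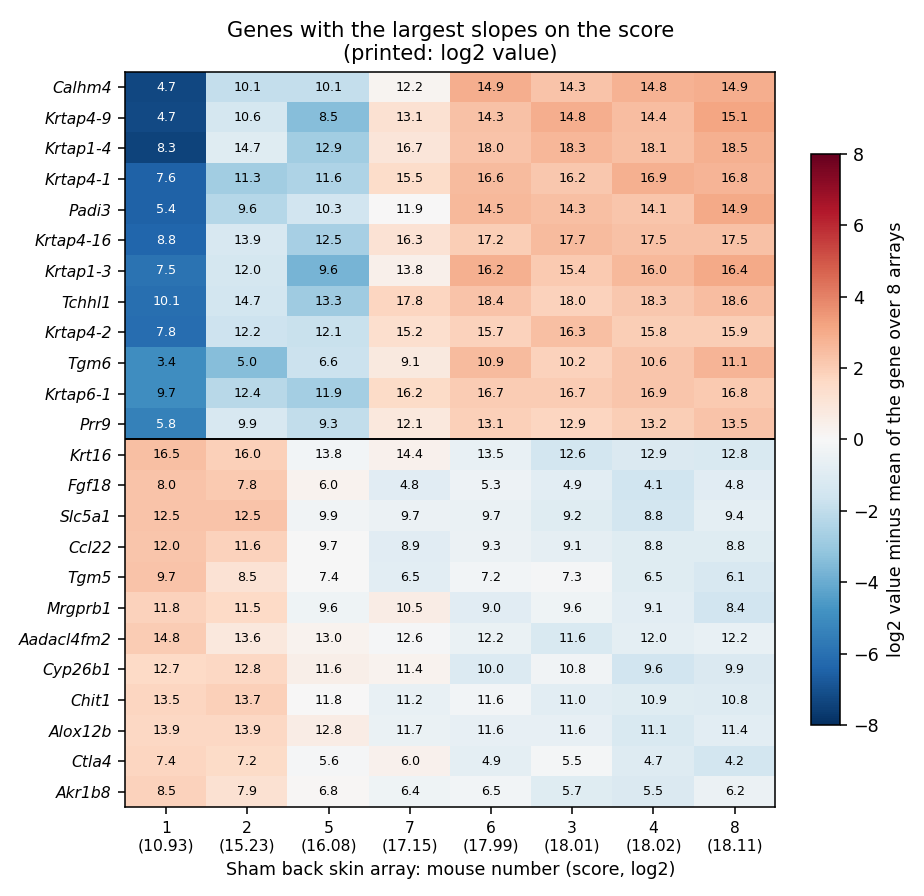
Log2 values of the 12 genes with the largest positive (top) and the 12 with the largest negative slope (bottom) on the 8 sham back skin arrays, in order of score; colour is the difference from the mean of the gene. Positive genes are lowest in mouse 1, and the negative ones are highest in mice 1 and 2.

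Among the transcription factors of the matrix, Hoxc13, which acts on hair keratin genes, had 5.54 in mouse 1, 7.50 in mouse 2, 9.70 in mouse 5, 9.92 in mouse 7 and 11.07 to 11.50 above (rho 0.97). Dlx3, a homeobox factor of the matrix, went from 9.90 to 15.16 (rho 0.95). Of the 13 factors above the filter 12 had a positive rho, with a median of 0.79. The ligands were mixed. Wnt11 (4.86 to 8.60, rho 0.98) and Bmp8a (3.49 to 8.53, rho 0.90) went with the score, both below background in mouse 1. Igf1, a growth factor of the dermis, ran the other way (14.79 in mouse 1, 12.49 in mouse 4, rho -0.93). Over 20 growth phase ligands and receptors the median rho was 0.26, and -0.26 without mice 1 and 2. Shh, the growth signal of the matrix, was named after its values were seen and had a rho of 0.40, with its highest value, 7.51, in mouse 5.

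The label of a growth state was only partly borne out by the other lists. The 27 cell cycle genes had a median rho of -0.55, and 24 of them were negative; Mcm3, a DNA replication factor, had a rho of -0.76. The 17 dermal papilla genes had a median of -0.07, with Bmp4 at 0.88, and the 18 genes of resting phase and bulge one of 0.18, which was -0.13 without mouse 1 and -0.51 without mice 1 and 2. In that last list Cxcl14, a chemokine, was positive (11.21 to 14.11), and Itga6, an integrin of basal cells, and Fgf18, a growth factor of the resting bulge, were negative. Of 7 regression phase genes the median was -0.40, although Fgf5, known for ending growth, had a rho of 0.81 and ran from 3.12 to 9.63. Fgf5 was above background on 5 of 8 arrays. The score is treated here as a level of inner root sheath RNA, since the phase of the follicles was not measured.

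Pigment genes did not all follow the score. Mitf, the master regulator of pigment cells, followed the score closely (10.88 to 12.54, rho 0.98), with 11.24 in mouse 5, 12.15 in mouse 7 and 12.36 to 12.54 in the upper 4. The list of 11 had a median rho of 0.50, and -0.09 without mice 1 and 2. Its mean was 9.09 in mouse 5, 6.98 in mouse 7 and 8.51 to 9.69 in the upper 4 mice. Trpm1, a channel of pigment cells, and Tyrp1, an enzyme of melanin synthesis, were looked at after their values were seen. Trpm1 had 12.14 in mouse 5 and 6.72 in mouse 7, and 10.70 to 12.57 in the upper 4 mice. Tyrp1 had 11.91 in mouse 5 and 8.30 in mouse 7. The list mean, Trpm1 and Tyrp1 were thus higher in mouse 5 than in mouse 7, and Mitf was lower. Krt84 and Krt36, also named after inspection, were highest in mouse 7, at 13.35 and 9.57. Skeletal muscle genes, with a mean of 9.93 in mouse 2 and 14.91 in mouse 7, were high in mice 5 and 7 as well (median rho of 20 genes 0.23, and -0.51 without mice 1 and 2; Myh2, a muscle myosin, 0.33), and their part in these contrasts was not tested.

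**Figure D3:**
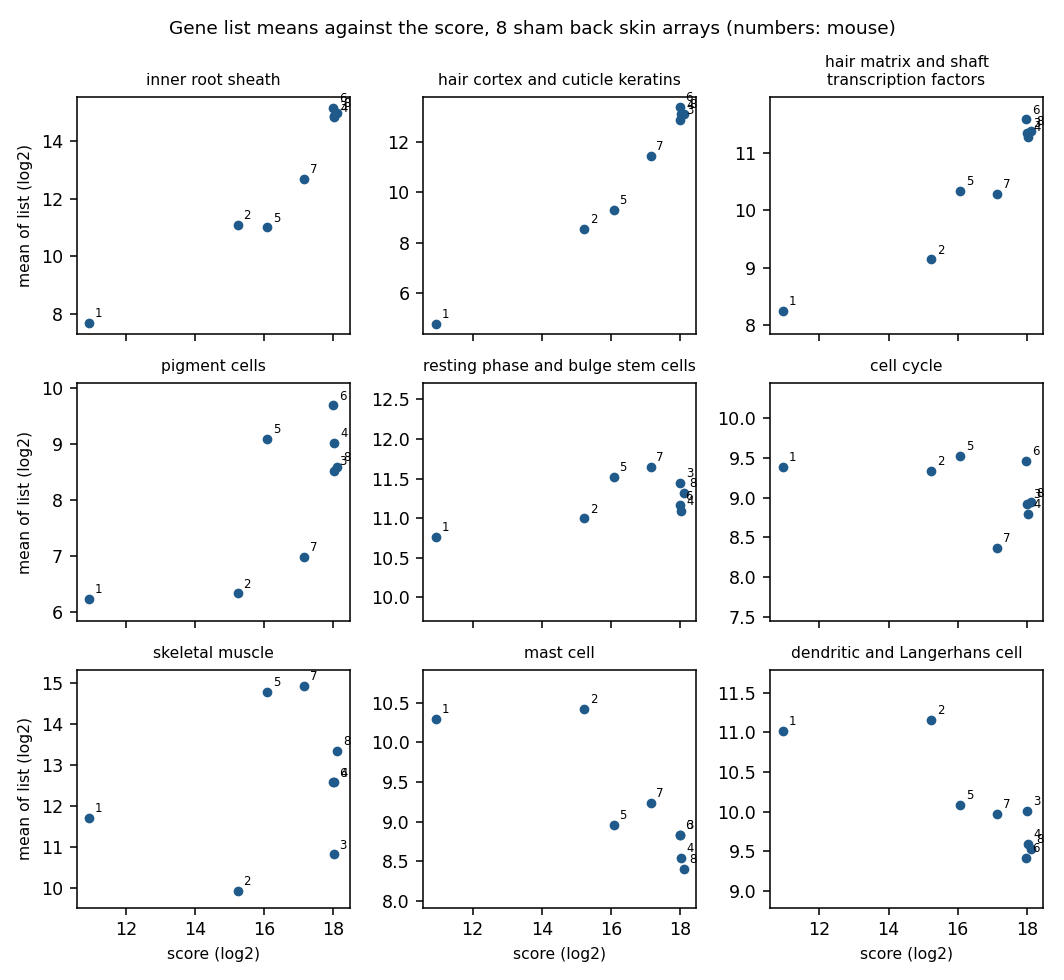
Mean log2 value of 9 gene lists (vertical axes, of different ranges) against the score in the 8 sham back skin arrays, numbered by mouse. Sheath, keratin and transcription factor means climb with the score, the pigment mean is high in mouse 5 and low in mouse 7, and mast cell and dendritic cell means are highest in mice 1 and 2.

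Of the 297 negative genes 283 were on none of the 26 lists. Krt16, a keratin of stressed epidermis, was highest in mouse 1 at 16.49 and next in mouse 2, and had 13.83 in mouse 5, 14.39 in mouse 7 and 12.62 to 13.47 in the upper 4. Slc5a1, a sodium and glucose transporter, had 12.50 and 12.47 in mice 1 and 2 and 8.76 to 9.93 in the other 6, and Ccl22, a chemokine that draws T cells, had 12.02 and 11.64 against 8.79 to 9.74. In each of these genes the first 2 mice did not overlap the rest. Mice 1 and 2 lay beyond all others in 238 of the 297 negative and in 121 of the 195 positive genes, which the rule favours, since they have the lowest scores. They lay beyond all others, in the direction of each gene's rho, in 3014 of the 12275 genes looked at.

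Of the epidermal genes, Alox12b, a lipoxygenase of the skin barrier, went from 13.89 and 13.91 in mice 1 and 2 to 11.05 in mouse 4. Tgm5, an epidermal transglutaminase, ran from 9.71 to 6.10, and the late cornified envelope genes Lce1a1 and Lce1b had a rho of -0.95 each. Cyp26b1, which degrades retinoic acid, ran from 12.76 in mouse 2 to 9.59 in mouse 4. Aadacl4fm2, of an esterase family, had its highest value of 14.81 in mouse 1, and Akr1b8, an aldo-keto reductase, one of 8.52. The median rho was -0.64 for 18 interfollicular genes and -0.64 for 15 genes of stressed or inflamed epidermis, of which 12 were negative and 3 positive. The highest of the 3 was Gjb2, a gap junction protein, at 0.90 (11.70 to 15.41). The 3 companion layer genes had a median rho of 0.59 but split in sign, with 2 positive and 1, Krt16, negative at -0.90.

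In sham back skin, markers of immune cells were lower at high score in most lists. Macrophage genes had a median rho of -0.76, with all 11 negative. Csf1r, the receptor of their growth factor, went from 14.16 to 12.39, C1qb, a complement subunit, from 10.14 to 8.27, and Adgre1, the macrophage surface marker, from 10.40 to 8.43. The 7 mast cell genes had a median rho of -0.79. The mean of these genes had a rho of -0.93 (10.42 in mouse 2, 8.41 in mouse 8), and that of macrophage genes one of -0.83. Cpa3, the mast cell protease, had -0.88 and Mrgprb1, a receptor of the Mas-related family, -0.90. The medians were -0.79 for 8 dendritic and Langerhans cell genes (H2-Eb1, of MHC class II, -0.90, but Epcam 0.90), -0.63 for 8 T cell genes (Cd3e -0.86) and -0.71 for 5 neutrophil genes (Stfa2 -0.79). Ctla4, an inhibitory receptor of T cells, and Chit1, a chitinase of macrophages, had rho values of -0.95 each. Ctla4 was above background on 6 of 8 arrays, with 4.70 in mouse 4 and 4.24 in mouse 8 below it.

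Of the remaining lists, 15 adipocyte genes had a median rho of -0.52, with Plin1, Pnpla2 and Dgat2 of fat storage and release at -0.93, -0.90 and -0.95. The medians were -0.74 for 17 sebaceous gland genes (Elovl4 -0.86), -0.64 for 13 fibroblast genes (Dcn -0.81), -0.57 for 9 endothelial genes (Kdr -0.84), -0.60 for 5 Schwann cell genes (Pmp22 -0.79) and -0.26 for 14 clock genes (Clock -0.93). The 1 erythroid gene, Alas2, had -0.04. The median over all genes was -0.14. With array medians made equal these directions held for every list above except that of Alas2, at 0.02, with -0.71 for macrophage and -0.51 for T cell genes.

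Without mice 1 and 2 the rule gave 167 positive and 207 negative genes, of which 70 and 81 were among the 195 and 297. All 492 kept the sign of their rho over those 6 arrays, which a rho of that size over 8 arrays nearly fixes. Without mouse 1 alone the counts were 115 and 188, and without mouse 6 they were 328 and 450. With the 4 nearly equal upper scores treated as tied, they were 463 and 437. Over the 6 arrays without mice 1 and 2, the median rho of the hair structural lists was 0.63, 0.60 and 0.60, that of macrophage genes -0.60, of T cell and of interfollicular genes -0.23 each and of stressed epidermis -0.14. The median turned sign over these arrays for growth phase ligands and receptors (-0.26), resting phase and bulge (-0.51), skeletal muscle (-0.51) and pigment genes (-0.09), and for Alas2 (0.23). With array medians made equal the split turned from 39.6% positive (195 against 297) to 59.3% positive (291 against 200), and 146 and 139 genes were shared.

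HDM back skin gives 8 arrays that the rule did not use, over a score range of 1.08 against 7.17. Of 22206 rows, 130 rose with the score there (0.585%) and 7 fell (0.0315%) at an adjusted p under 0.05 (limma, Benjamini-Hochberg). Of the 195 positive genes 12 rose and 0 fell, and of the 12275 genes looked at 116 rose and 3 fell. The 12 were Calhm4, Tgm6, Padi3, Krtap1-3, Krtap1-4, Dlx3, Ctse, Gprc5a, Cpm, Dok4, Plag1 and 1 gene without a descriptive name. Calhm4 lay between 10.89 and 13.63 with a median of 12.35, and rose by 2.43 ± 0.35 (SE, n = 8) log2 per unit of score (limma adjusted p = 0.0144). Tgm6 lay between 7.11 and 10.10 and rose by 2.51 ± 0.37 (limma adjusted p = 0.0152), Padi3 by 1.99 ± 0.30 (0.0156) and Dlx3 by 2.06 ± 0.33 (0.0215). Ctse, an aspartic protease, rose by 2.24 ± 0.32 (0.0128).

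Without HDM mouse 2 or HDM mouse 4, the lowest scores of that group, 0 rows passed adjustment. At an unadjusted p under 0.05, 1301 rows rose and 586 fell without mouse 2, and 1045 rose and 947 fell without mouse 4. With all 8 arrays 1473 rose and 687 fell. Without mouse 4, 49.8% of all rows had a slope above 0, against 55.4% with all 8 arrays. Leaving out mouse 6, 7, 3 or 8 gave 68, 72, 76 and 86 rows that rose after adjustment, and array medians made equal gave 62. At that unadjusted threshold, which 6.63% of all rows passed upward and 3.09% downward with all 8 arrays, 61 positive genes were higher and 4 lower with the score. Of the 12275 genes looked at, 1205 were higher and 403 lower. A rho above 0 was found for 79.0% of the positive genes and 56.4% of all genes looked at, with medians of 0.40 and 0.10. Of the negative genes 1 rose (Tcof1, of ribosomal RNA transcription, by 1.30 ± 0.24, limma adjusted p = 0.0382) and 0 fell. At the unadjusted threshold 18 of these 297 were higher and 11 lower, beside the 1205 and 403 of all 12275 genes looked at. A rho under 0 was found for 56.2% of them, against 41.8% of all genes. Krt16 had a slope of -0.26 ± 0.26 and Ccl22 of -0.64 ± 0.93, neither past the threshold (limma adjusted p = 0.824 and 0.885).

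**Figure D4:**
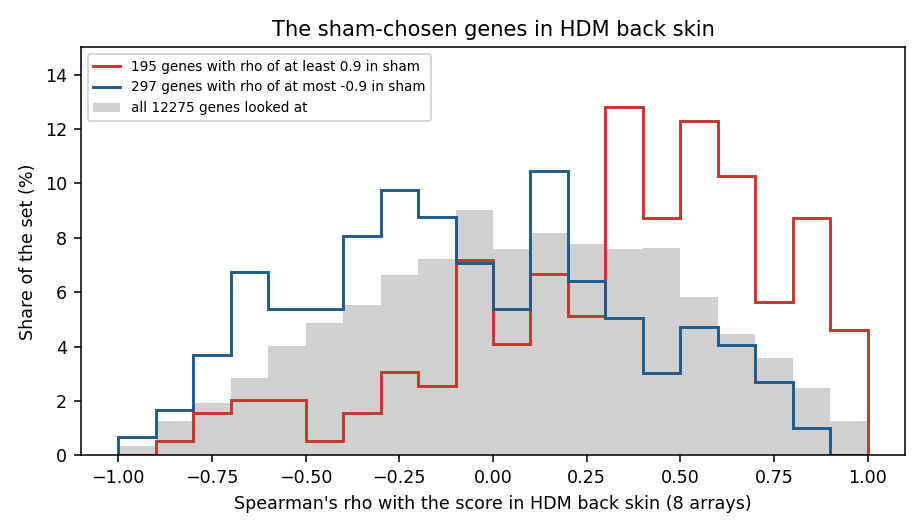
Share of genes (vertical axis, percent) by rho with the score over the 8 HDM back skin arrays, for all 12275 genes looked at (grey), the 195 positive (red) and the 297 negative genes (blue). The red outline is shifted to the right, with a median of 0.40, and the blue one has a median of -0.12 against 0.10 for all genes.

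Hair lists moved with the score in HDM back skin as well. Of the 69 hair structural genes, 64 had a slope above 0, as did 55.4% of all rows, and 35 rose at an adjusted p under 0.05 and 53 at an unadjusted one. Leaving out HDM mouse 2 or 4 left 51 and 54 at the unadjusted threshold, with 67 and 66 slopes above 0. The 35 comprised 6 of 10 inner root sheath genes, 6 of 12 hair keratins and 23 of 47 Krtap genes (17 of 47 with array medians made equal). Krt31 rose by 2.47 ± 0.27 log2 per unit of score, Krt35 by 2.97 ± 0.36 and S100a3, a calcium-binding protein of the hair cuticle, by 2.38 ± 0.24 (limma adjusted p = 0.00717, 0.00951 and 0.00717). S100a3 was counted here in the inner root sheath list.

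Of the matrix factors 4 of 13 rose: Lef1, which mediates Wnt signals, by 3.00 ± 0.40, Msx2 by 2.92 ± 0.42, Dlx2 by 2.63 ± 0.43 and Dlx3, while Hoxc13, the closest to the score in sham skin, had a slope of 1.67 ± 0.47 that did not pass (limma adjusted p = 0.233). With array medians made equal 1 of the 13 rose. Of the pigment genes 1 of 11 rose, Trpm1, by 5.50 ± 0.82 (limma adjusted p = 0.0152). Lhx2, a factor of follicle stem cells, rose by 1.47 ± 0.24 (0.022). Of the 27 cell cycle genes 0 rose or fell, with a median slope of 0.54, against -0.09 in sham skin, and the difference was not tested. These genes were chosen with their results in view. Immune lists, negative in sham skin, were mostly near 0 in HDM back skin. Their median rho was -0.10 for macrophage, 0.01 for T cell and -0.04 for dendritic and Langerhans cell genes. It was -0.04 for neutrophil and -0.43 for mast cell genes, and 0 genes of these lists rose or fell. Sebaceous gland genes had a median of 0.57 and fibroblast genes of -0.74.

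**Figure D5:**
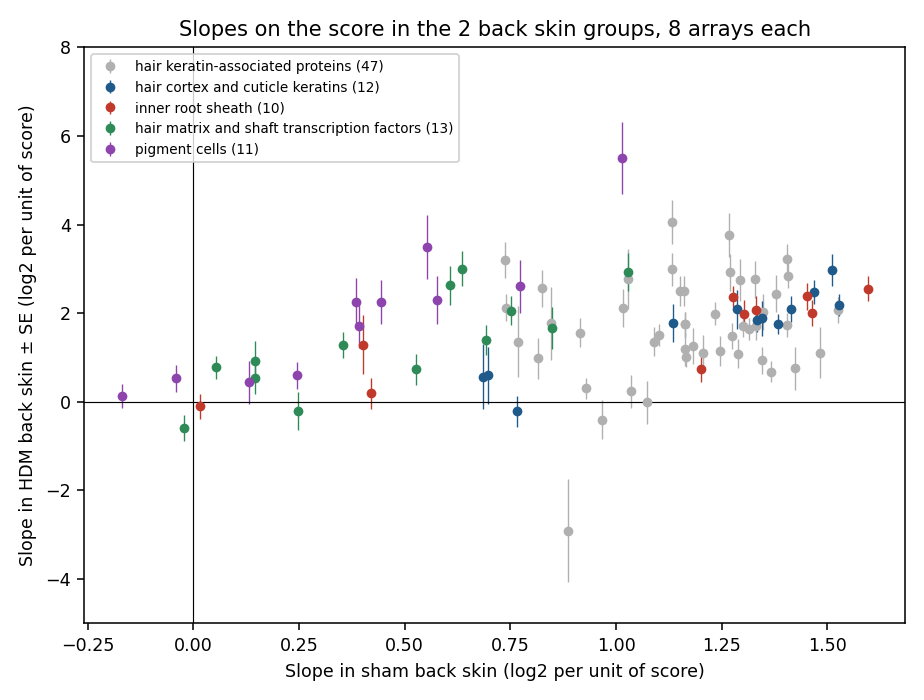
Slope on the score (log2 per unit) in sham (horizontal) and HDM back skin (vertical, ± SE), 8 arrays each, for the genes of 5 hair lists that passed the background filter. Of the hair structural genes 64 of 69 lie above 0 on the vertical axis, and Trpm1 is the highest point.

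In ear the score lay between 4.80 and 9.11 in sham and between 4.21 and 6.99 in HDM samples. In sham ear 11 rows rose with it (0.0495%) and 0 fell (limma; 638 and 546 at an unadjusted p under 0.05), and 4 of these were the score genes themselves. The others with a symbol were S100a3, Krt31, Krt86, Krt73, Krtap11-1 and Rgs13, of which the first 5 are hair structural genes. S100a3 lay between 3.65 and 8.05 in sham ear and rose by 1.02 ± 0.12 per unit of score (limma adjusted p = 0.0128). In HDM ear 0 rows (0%) passed in either direction (limma; 1049 rows up and 862 down at an unadjusted p under 0.05). Of the 195 positive and 297 negative genes 0 passed in either ear group, and 66.7% of the positive genes had a slope above 0 in sham ear against 55.0% of all genes looked at.

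The spread of the score in sham skin bears on HDM against sham in back skin, where 6.18% of rows were higher and 8.56% lower in HDM skin (limma, adjusted p under 0.05). The sham arrays that chose the genes enter this comparison too. Of the 195 positive genes 10 were higher and 12 lower, with a median difference of -0.13. Of the 12275 genes looked at 1037 were higher (8.45%) and 1698 lower (13.8%), with a median of -0.09. With array medians made equal, which moved the median of all rows from 0.01 to 0.13, 15 were higher and 10 lower, and 2433 and 1392 of all rows in place of 1372 and 1901. Without sham mice 1 and 2, 3 were higher and 49 lower, against 6.03% and 7.92% of all rows, and the median was -0.52. The rule favours positive genes that are low in these 2 mice, so leaving them out lowers the difference by construction. With the score as a covariate, 7 positive genes were higher and 44 lower, against 4.63% and 7.67% of all rows. Positive genes were chosen for rising with the score, whose mean was higher in HDM skin. The covariate therefore also lowers their difference by construction. Shares over the genes looked at were not taken in these settings. For the hair lists the median difference turned sign without the 2 mice. It went from 0.64 to -0.84 for inner root sheath, from 0.23 to -1.25 for hair keratins and from 0.19 to -1.10 for Krtap genes. The hair list means were low in these mice too, which sets the direction of that change but not its size. Those means also rose with the score in sham skin, so the covariate shifts the lists in the same direction. None of the 47 Krtap genes was called lower with all arrays, but 11 were without those mice and 14 with the covariate. Of the 13 matrix factors 6 were called lower without the mice and 8 with the covariate, against 0 with all arrays.

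Of the 297 negative genes 26 were higher (8.75%, against 8.45% of all genes looked at) and 90 lower (30.3%, against 13.8%) in HDM skin, with a median difference of -0.27. Leaving out sham mice 1 and 2, where the rule favours high values of these genes, gave 33 and 61. Of all rows, dim ones included, 6.03% were then higher and 7.92% lower, against 6.18% and 8.56% with all arrays. The share over the genes looked at was not taken in that setting. Krt16 had 17.72 to 18.38 in HDM skin, above every sham array, a difference of 4.05 ± 0.55 (SE, n = 8 per group, limma adjusted p = 3.33e-06). Slc5a1 was higher by 3.04 ± 0.41, Akr1b8 by 2.02 ± 0.44, Tgm5 by 1.44 ± 0.35 and Alox12b by 1.07 ± 0.33. Aadacl4fm2 was lower (-4.31 ± 0.49, limma adjusted p = 2.15e-07), as were Ccl22 (-2.42 ± 0.47), Cyp26b1 (-1.59 ± 0.33), Mrgprb1 (-1.53 ± 0.35) and H2-Eb1 (-1.73 ± 0.24). Genes that shared a direction with the score in sham skin thus lay on both sides between HDM and sham skin.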

How the data were processed

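The deposited values are log2 expression levels per transcript cluster, made by the authors with RMA (background correction, quantile normalization, probe set summary). The submitters' processing notes name the Transcriptome Analysis Console. Versions and genome build were not given in the sources used here. Of 28846 rows, 6640 array controls were left out, and 22206 were tested, 19572 of them with a gene symbol matched to RefSeq. The row with the highest mean stood for a gene. Genes above the negative control median on at least 3 of 8 sham back skin arrays were looked at. The number of arrays limits precision.

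Slopes on the score and group differences were fitted with limma 3.58.1 in R 4.3.3 (lmFit, eBayes, two-sided, Benjamini-Hochberg over 22206 rows, threshold 0.05). The group fit used all 32 arrays. Scores were compared with exact permutation tests. Tested on simulated data for HDM back skin, planted slopes of 1 and 2 log2 per unit were found for 1 and 54 of 100 rows.

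The members and 26 lists were chosen with earlier results of these data known. Named are the 12 genes with the largest slope in each direction, and from each list up to 4 members at an absolute rho of 0.9 or the closest one; others are marked. In the main fits mouse numbers were not used to pair samples, since the labels do not say that they mark the same animal. Same-numbered deviations correlated between -0.14 and 0.14 for sham and HDM back skin. For sham back skin and sham ear they correlated between -0.11 and 0.04. Such weak correlations do not show whether samples came from the same animal. Alternatives were equal array medians, other score genes, Pearson's r, arrays left out, other filters, covariates and a replicate block.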

Additional observations from a re-analysis of the deposited data

Results flagged for a closer look

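Among 54 values tested for a sample far from the others of its group, 2 were found, both in sham back skin mouse 1, and chance gives about 1 in 20. The score of mouse 1 was 10.93, against 15.23 to 18.11 in the other 7 mice, a gap of 0.598 of the whole range. Calhm4 was 4.74 in mouse 1, against 10.14 to 14.95 in the others, a gap of 0.529 of the range, where 0.526 is the limit for 8 samples. That value is below the array background of 5.06, and set at background the gap is 0.514, under the limit. Calhm4 was also chosen for following the score.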

How the results depend on the processing

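The score difference between HDM and sham ear passed the threshold only without Krt27 in the score (-1.60). Negative genes numbered 176 without Krt71 in the score and 155 with Pearson's r. With 1 sham array left out, positive genes numbered between 115 (without mouse 1) and 328 (without mouse 6), and negative genes between 188 and 450 (the same 2 mice). A threshold of 0.8 gave 645 and 958. Tying the 4 highest scores, chosen after seeing the data, gave 463 positive genes. Of the recomputed rho values of named genes, 880 moved by less than the spread and 89 by more, none with a called sign turned. In HDM back skin, 62 rows rose with array medians made equal and 4 fell without Tchh in the score. With 1 array left out, 0 to 116 rose and 0 to 9 fell. In sham ear 7 rows rose without Krt71, and in HDM ear 1 rose without Krt71 and 1 without Tchh. Against sham back skin, 44 positive genes were lower with a covariate slope per group and 35 with 1 slope, and without sham mice 1 and 2, 49 were lower and 3 higher. With a replicate block by mouse number, 9 and 13 positive and 25 and 89 negative genes were higher and lower. The score differences under the replicate block kept their size, -1.37 in ear among them. Of the recomputed differences of called named genes, 123 held and 9 lost their call, of Gjb2, Clock, Alox12b and Igf1.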
